A study of Mus musculus with 4 samples.

Results

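Transcript levels of the MHC class II antigen presentation genes were read from 4 Affymetrix arrays of pancreas RNA, taken from mice on day 5 of a cerulein course. The genes are H2-Aa, H2-Ab1, H2-Eb1, H2-DMa, H2-DMb1, H2-Ob, Cd74 and Ciita. They were chosen by name, and a gene was kept where the array's annotation gave a row that symbol and no other. Of the 8 genes, 7 had such a row, out of 22180 genes measured in this way. The row that carries Cd74 also carries the symbol of a microRNA gene, so no value of it is used. The tissue came from 8-week-old Ifrd1 null mice (2 arrays) and wild-type mice of the same age (2 arrays). All mice received cerulein, a peptide that acts like cholecystokinin, drives acinar cells to secrete in excess and so inflames the pancreas. The dose was 100 µg/kg into the peritoneum, 6 times a day on alternate days. Untreated pancreas is not analysed here. Strain, sex, the kind of Ifrd1 allele and any pooling of mice are not given in the sources used here.

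MHC class II molecules are pairs of an alpha and a beta chain that show peptides from engulfed proteins to CD4+ T cells. In the mouse, H2-Aa and H2-Ab1 encode the chains of I-A, and H2-Eb1 encodes the beta chain of I-E. The invariant chain, encoded by Cd74, blocks the peptide groove until it is digested in the endosome. H2-DM, made from H2-DMa and H2-DMb1, then exchanges its last fragment for other peptides, and H2-O, whose beta chain is H2-Ob, inhibits H2-DM, mainly in B cells. Ciita encodes the coactivator that switches the whole set on. Dendritic cells, B cells and macrophages express these genes, and interferon gamma can induce them in other cells.

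Ciita does not bind DNA itself but docks on factors held by an X box and a Y box, which lie close to each other upstream of class II genes. The stretches below, from the RefSeq promoter table (build GRCm38.p6), show both motifs for H2-Eb1, H2-DMb1 and their close paralogs H2-Eb2 and H2-DMb2, and the Y box core without an exact match to the X box letters for H2-Ob and H2-Aa. They run 5′ to 3′ on the strand of the gene. Capitals mark ACNGATG, searched as the end of the X box, and GATTGG, searched as the core of the Y box, which holds the inverted CCAAT sequence.
H2-Eb1, chr17:34305757-34305836, plus strand: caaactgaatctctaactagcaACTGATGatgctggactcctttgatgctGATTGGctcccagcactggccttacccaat
H2-DMb1, chr17:34153081-34153160, plus strand: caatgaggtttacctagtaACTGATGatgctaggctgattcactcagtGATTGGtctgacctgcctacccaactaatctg
H2-Ob, chr17:34238795-34238874, plus strand: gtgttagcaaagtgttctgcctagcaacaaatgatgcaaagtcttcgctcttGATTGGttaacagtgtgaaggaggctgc
H2-Aa, chr17:34287854-34287933, minus strand: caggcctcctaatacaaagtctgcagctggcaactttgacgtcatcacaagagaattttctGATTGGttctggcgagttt
H2-DMb2, chr17:34145099-34145178, plus strand: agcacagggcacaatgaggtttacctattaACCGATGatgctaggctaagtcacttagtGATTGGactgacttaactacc
H2-Eb2, chr17:34325525-34325604, plus strand: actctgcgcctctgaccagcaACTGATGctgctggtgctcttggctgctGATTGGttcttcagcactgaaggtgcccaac

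The table held windows for 5 of the 8 genes (H2-Aa, H2-Eb1, H2-DMa, H2-DMb1 and H2-Ob) and for H2-Oa, H2-DMb2 and H2-Eb2. H2-Ab1, Cd74, Ciita and H2-Ea were not matched. Each window runs from 250 bases before a transcription start to 50 bases after it. In H2-Eb1 the X box end began 88 bases upstream of the start and the Y box core 60 bases upstream, with 21 bases between them. In H2-DMb1 they began 91 and 62 bases upstream, with 22 bases between. H2-Aa and H2-Ob had the Y box core at 49 and 58 bases upstream, and ACNGATG did not occur on their gene strand. Both motifs in this order on the same strand, with a gap of 5 to 40 bases, occurred in 4 of the 9 class II windows (H2-Eb1, H2-DMb1, H2-DMb2 and H2-Eb2), against 0.113% of all 32851 windows on either strand. GATTGG occurred on the gene strand of all 8 class II genes with a window, and on either strand in 16.1% of all windows. H2-DMa has 2 windows, and the motif was found in the one for the downstream start, at 199 bases upstream. ACNGATG by itself occurred in 9.85% of all windows. A match is a run of letters and was not tested for binding.

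**Figure D1:**
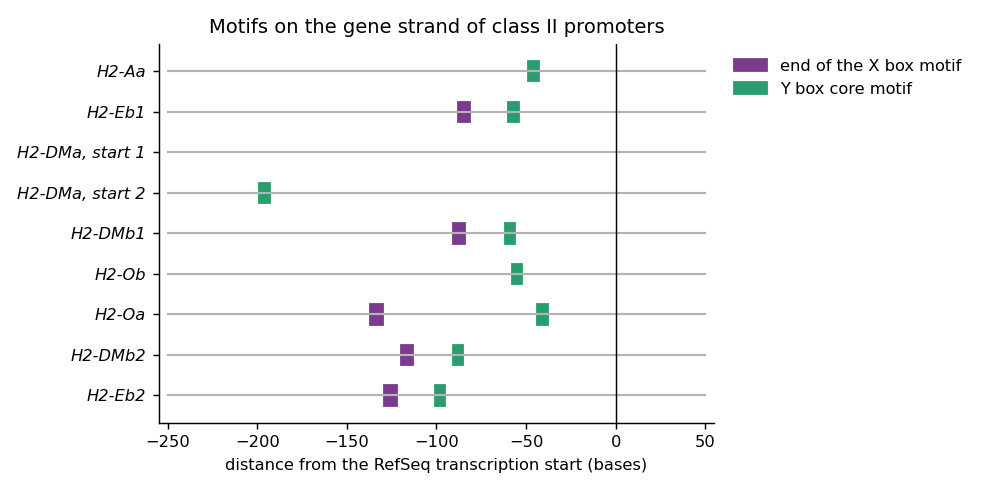
Positions of the X box end (purple) and Y box core (green) on the gene strand of 9 promoter windows of class II genes; the x axis gives the distance from the RefSeq transcription start in bases, and each grey line is 1 window. In H2-Eb1, H2-DMb1, H2-DMb2 and H2-Eb2 the motifs lie 21 or 22 bases apart.

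Values are log2 levels per array as the authors deposited them, and each gene is compared only with itself. The array medians lay between 4.08 and 4.15. Ifrd1 was at 6.99 and 7.09 in the null arrays, against 9.04 and 9.07 in the wild-type arrays, so each array matched its label. The genotypes also differed in sex-linked genes: Xist was at 10.2 and 9.58 in the null arrays, against 2.56 and 3.54 in wild type, and the Y-linked Uty was at 2.25 and 2.36, against 6.41 and 6.40. Genotype and sex as read from these genes cannot be told apart in these arrays. The tissue label was checked with 9 acinar cell markers, all above the median of every array, with Cpa1, a digestive carboxypeptidase, at 13.4 and 13.7 in the null and 13.6 and 13.6 in wild type. Ifrd1 null 1 stood apart in B and T cell genes and wild type 1 in several intestinal genes, with values given beside the results they touch.

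No class II gene passed the test for a difference between the genotypes. Group means of H2-Aa, H2-Ab1, H2-DMa and Ciita lay within 0.03 of each other on the log2 scale. H2-Eb1, the I-E beta chain, had the largest difference, 1.28-fold higher in the null, and only 1 of the null arrays carried it. Of the 7 genes, 0 passed limma's test at an adjusted p of 0.05 and 0 had an unadjusted p under 0.05, against 0.00451% and 6.91% of all genes (3.27% higher and 3.63% lower in the null at the unadjusted threshold). Groups overlapped for all 7 (0 without overlap), against 35.8% of all genes without overlap. The median difference was -0.02 over the 7 genes and -0.01 over all genes. For 2 arrays in each genotype the smallest p that exact permutation allows is 0.333, so no such test was run. The adjusted threshold is also hard to reach with these arrays. Ifrd1 itself, at -2.02 ± 0.11 (log2, SE), had a limma adjusted p of 0.138, and Xist, at 6.82 ± 0.39, had 0.140. A gene that did not pass may therefore still differ.

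Among the classical chains, H2-Aa was at 8.43 and 7.84 in Ifrd1 null 1 and 2, against 7.99 and 8.27 in wild type 1 and 2. Both wild-type values lie between the null values. The difference was 0.01 ± 0.24 (log2, SE, n = 2 each; limma adjusted p = 0.996), with a 95% interval from 0.643-fold to 1.57-fold. H2-Ab1, its partner chain, repeated that order, with 10.25 and 9.63 in the null and 9.85 and 10.07 in wild type. Its group means were 9.94 ± 0.44 in the null and 9.96 ± 0.15 in wild type (SD), a difference of -0.02 ± 0.24 (SE; limma adjusted p = 0.990). The interval ran from 0.63-fold to 1.55-fold. Differences of each I-A gene within its own interval are compatible with these arrays. An interval does not give the smallest difference that would have passed the test.

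H2-Eb1 was at 8.24 and 7.48 in Ifrd1 null 1 and 2, against 7.47 and 7.53 in wild type 1 and 2. Ifrd1 null 1 was the high array, and the other 3 lay within 0.06 of each other. The difference was 0.36 ± 0.27 (log2, SE; limma adjusted p = 0.782), with an interval from 0.772-fold to 2.14-fold. Leaving out Ifrd1 null 1 gave -0.02 (limma adjusted p = 0.927), and leaving out Ifrd1 null 2 gave 0.74 (unadjusted p = 0.00861; limma adjusted p = 0.498). In both of these fits the lone null array is assumed to vary like the wild-type pair.

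Of the peptide editors, H2-DMa was at 6.34 and 6.00 in Ifrd1 null 1 and 2 and at 6.00 and 6.37 in wild type 1 and 2, a difference of -0.02 ± 0.20 (log2, SE). Each genotype thus had 1 higher and 1 lower array. The lower values of both genotypes were identical to the last decimal deposited, as values of 3124 of the 22180 genes were in 2 or more arrays. H2-DMb1, the other H2-DM chain, was at 3.05 and 3.11 in the null, against 2.97 and 3.32 in wild type, a difference of -0.07 ± 0.15. It lay below the median of every array, and no detection call was given, so signal above background was not shown for it. H2-DMb2, its neighbour and close paralog, was above the median in Ifrd1 null 1 (5.11) and in both wild-type arrays (4.53 and 4.52), with 3.93 in Ifrd1 null 2. How far the probes of these rows tell the copies apart was not tested, and the same holds for H2-Eb1 and H2-Eb2.

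H2-Ob, the beta chain of the H2-DM inhibitor, was at 4.66 and 4.30 in Ifrd1 null 1 and 2 and at 4.38 in both wild-type arrays, again an identical pair. These levels lay only a little above the array medians and below the median gene, so signal above background was not shown for H2-Ob either. The difference was 0.10 ± 0.16 (log2, SE; limma adjusted p = 0.871). H2-Oa, which encodes the alpha chain of the same inhibitor, went the other way, with 4.87 and 4.54 in the null, against 5.03 and 5.06 in wild type. Its groups did not overlap, but the difference of -0.34 ± 0.15 did not pass (limma adjusted p = 0.728, unadjusted p = 0.0809).

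Ciita, the coactivator of the set, was at 5.89 and 5.39 in Ifrd1 null 1 and 2, against 5.43 and 5.91 in wild type 1 and 2. Each genotype had a higher and a lower array, nearly level with those of the other genotype. The group means were 5.64 ± 0.35 in the null and 5.67 ± 0.34 in wild type (SD), and the difference was -0.03 ± 0.25 (SE; limma adjusted p = 0.983). Its interval from 0.611-fold to 1.57-fold is as wide as that of the I-A genes.

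**Figure D2:**
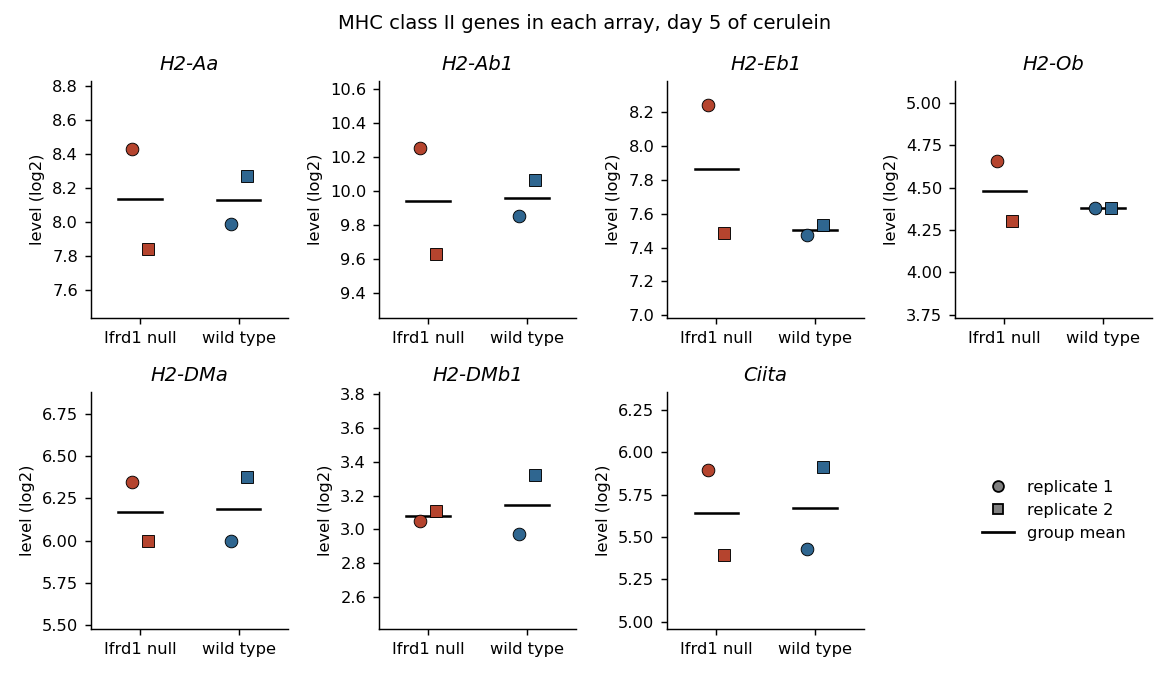
Log2 level (y axis, own range for each gene but the same span) of the 7 class II genes in each array, null in red left of wild type in blue; circles are replicate 1, squares replicate 2, and black bars group means. In every gene the genotypes overlap, and Ifrd1 null 1 lies above Ifrd1 null 2 in all but H2-DMb1.

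Arrays of the same genotype differed from each other in most class II genes. Ifrd1 null 1 exceeded Ifrd1 null 2 by at least 1.2-fold in 6 of the 7 genes (a size chosen after the values were seen), against 15.2% of all genes, and by any amount in the same 6, against 45.9%. The gap was 1.69-fold for H2-Eb1, 1.54-fold for H2-Ab1, 1.51-fold for H2-Aa, 1.42-fold for Ciita, 1.28-fold for H2-Ob and 1.27-fold for H2-DMa. H2-Ob was a dim row. In H2-DMb1, the dimmest, Ifrd1 null 1 was the lower by 0.06 on the log2 scale. The median gap of Ifrd1 null 1 over Ifrd1 null 2 was 0.50 over the 7 genes, while the median absolute gap over all genes was 0.17. With 1 array on each side, this gap has no replicate check and no test.

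The wild-type arrays were split as well, by less. Wild type 2 was above wild type 1 in 6 of the 7 genes and equal in H2-Ob, against 51.9% of all genes, and by at least 1.2-fold in 4 (H2-Aa, H2-DMa, H2-DMb1 and Ciita), against 12.3%. The median gap was 0.28. Both splits were seen in 5 of the 7 genes, against 24.8% of all genes. The gap between the null arrays was larger than the genotype difference in 6 of the 7 genes, against 57.6% of all genes, and the gap between the wild-type arrays in 5, against 52.4%. A gap between 2 single arrays varies more than a difference of means of 2, so most genes meet this in any case.

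Set array against array, the sign of the comparison followed the arrays chosen. Ifrd1 null 1 was above wild type 1 in 7 of 7 genes, with a median of 0.40 and a range from 0.08 in H2-DMb1 to 0.77 in H2-Eb1, while 46.1% of all genes were above. Against wild type 2 it was above in 4 of 7, with a median of 0.16 (44.3% of all genes were above). Ifrd1 null 2 was below wild type 2 in 7 of 7 genes, with a median of -0.38 and a range from -0.52 in Ciita to -0.05 in H2-Eb1, while 46.9% of all genes were above. Against wild type 1 it was below in 4, above in 2 and equal in 1 (48.2% of all genes were above). These pairs share arrays and the genes share their RNA sample, so the counts are not separate pieces of evidence.

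**Figure D3:**
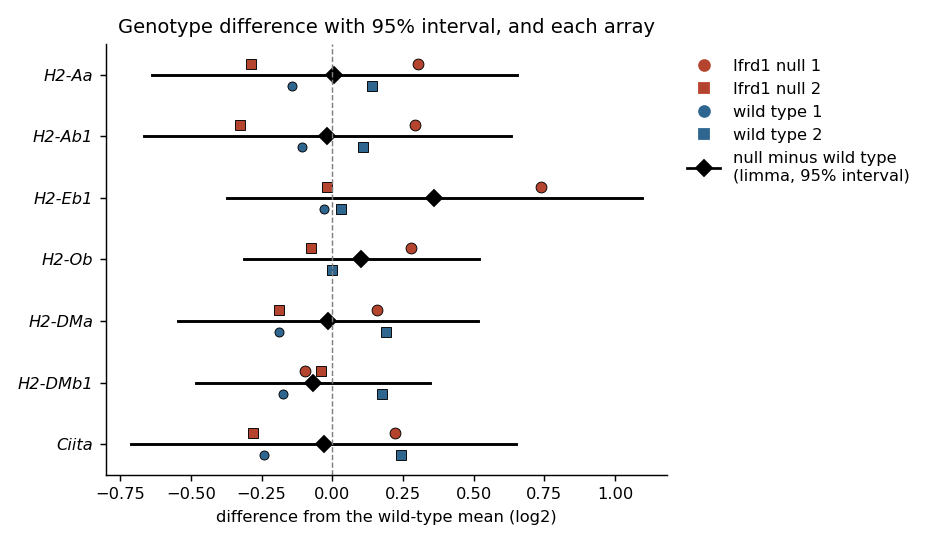
Difference from the wild-type mean (x axis, log2) for the 7 class II genes. Black diamonds and lines give null minus wild type with limma's 95% interval, red symbols the null arrays and blue symbols the wild-type arrays (circle, replicate 1; square, replicate 2); every interval spans 0, and the red symbols fall on both sides of 0 in 6 of the 7 genes.

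The rest of the pathway did not pass the test either. Over 6 lists of related genes, 53 were measured. In limma 0 passed at an adjusted p of 0.05 and 0 had an unadjusted p under 0.05, against 0.00451% and 6.91% of all genes. Of the 53, 13 were higher and 40 lower in the null, with a median of -0.10, while 47.2% of all genes were higher. Among genes above the median level, as most of these are, 32.6% were higher, with a median of -0.07. The counts list by list below are to be read beside that share. The split was 16 higher and 37 lower with quantile normalization, 18 and 35 with cyclic loess, and 10 and 43 with arrays centred on their medians. It was 27 higher and 26 lower without Ifrd1 null 2. Groups did not overlap in 18 of them, 3 higher and 15 lower in the null, where 16.1% of all genes were higher and 19.7% lower without overlap.

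Genes that act on class II promoters had a median difference of -0.14, with 6 of 7 lower in the null. All 7 lay above the median of every array, and 32.6% of genes above the median level were higher in the null. Rfx5, a subunit of the RFX complex that binds the X box, was at 6.23 and 6.07 in the null arrays and at 6.39 and 6.61 in wild type. Both null arrays were below both wild-type arrays, and the difference of -0.35 ± 0.14 (log2, SE) had an unadjusted p of 0.0538 and a limma adjusted p of 0.722. With arrays centred on their medians its unadjusted p in limma was 0.0374 (adjusted p = 0.699). It was also under 0.05 among genes above the median level and with another eBayes prior. It was not under 0.05 with quantile normalization, cyclic loess or the replicate number as a block. Nfyc, a subunit of the Y box factor NF-Y, was at -0.22 ± 0.17, and Creb1, which also binds near the X box, at -0.13 ± 0.10.

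Genes of interferon gamma signalling and of Ciita regulation had a median of -0.11, with 7 of 11 lower. Ifngr2, a receptor subunit, was at 8.05 and 8.01 in the null and 8.20 and 8.32 in wild type, and Ifngr1, the other subunit, at 8.29 and 8.01 against 8.41 and 8.43. The differences were -0.23 ± 0.11 and -0.27 ± 0.14 (log2, SE; limma adjusted p = 0.734 and 0.746). Jak1, their kinase, was at -0.11 ± 0.10. Ifng itself lay below the median of every array, so its level is not shown to be above background.

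Genes listed under invariant chain and antigen processing, not all of them proteases, had a median of -0.12, with 11 of the 12 lower in the null. The exception was Ctss, the cathepsin that trims the invariant chain in antigen-presenting cells, at 10.08 and 9.32 in Ifrd1 null 1 and 2 and 9.52 and 9.70 in wild type, the same order as H2-Aa (named after its values were seen). That order, with Ifrd1 null 1 highest, then wild type 2, wild type 1 and Ifrd1 null 2, was shown by 3 of the 12 genes and by 4.44% of all genes. Ctsb, a lysosomal cathepsin, was at -0.18 ± 0.14, Sppl2a, which clears the membrane stub of the invariant chain, at -0.19 ± 0.11, and Marchf8, a ubiquitin ligase that removes class II from the surface, at -0.26 ± 0.15 (log2, SE). Costimulatory genes had a median of -0.11, with 5 of 6 lower, among them Cd40 at -0.31 ± 0.27 and Icosl at -0.10 ± 0.15.

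Class I presentation genes, which show peptides from inside the cell, had a median of -0.02, with 8 of 13 lower. B2m, the light chain of class I, was at 12.1 and 11.7 in Ifrd1 null 1 and 2, against 11.7 and 11.9 in wild type 1 and 2. Psmb8, an immunoproteasome subunit encoded among the class II genes on chromosome 17, was at 0.26 ± 0.20, and Erap1, a peptide-trimming protease, at -0.29 ± 0.16 (log2, SE). Of the other class II genes, H2-Eb2 (0.32 ± 0.19) and H2-Ea (-0.06 ± 0.11) lay below the median of every array. RefSeq lists H2-Ea as a transcribed pseudogene.

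**Figure D4:**
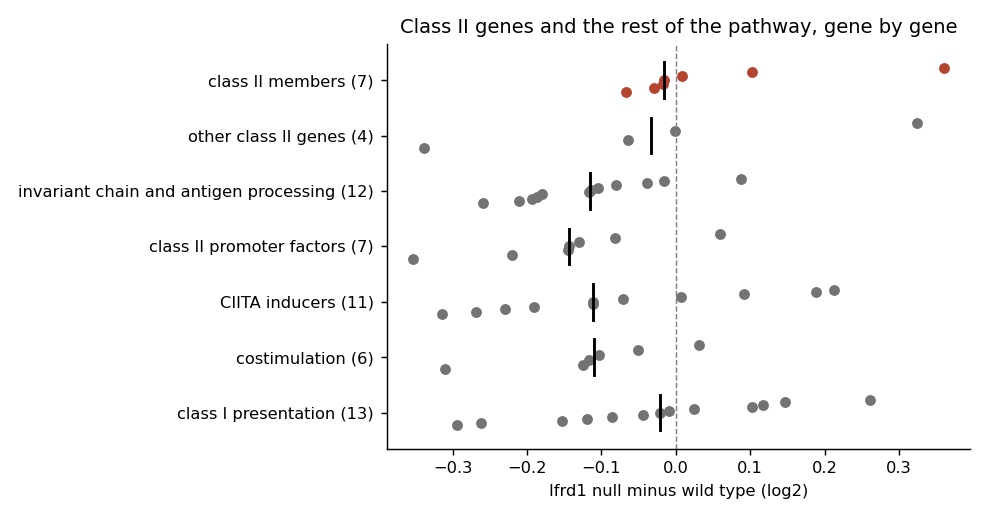
Null minus wild type (x axis, log2) for each measured gene of the class II set (red) and of 6 lists of related genes (grey), with the number of genes in brackets and black bars at the medians. The points run from -0.35 (Rfx5) to 0.36 (H2-Eb1).

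The arrays that were high or low in class II genes also differed in markers of other cell types. In bulk tissue, fewer cells of a type and less RNA per cell cannot be told apart. All 10 measured B cell markers were highest in Ifrd1 null 1, where 22.2% of all genes were. Their mean level was 5.57 in Ifrd1 null 1 and 4.34 in Ifrd1 null 2, against 4.93 and 4.74 in wild type 1 and 2. Of these 10 markers, 4 lay above the median of every array and 1 below it in every array. Cd79a, a chain of the B cell receptor, was at 7.19 and 5.31 in the null arrays and 6.23 and 6.01 in wild type, and Cd22, a B cell lectin, at 6.54 and 5.33, against 5.51 and 5.47. Pax5, a transcription factor of B cells, differed little between the null arrays, at 4.32 and 4.29, against 3.93 and 4.13 in wild type. The B cell markers did not follow class II within wild type, where 2 of 10 were higher in wild type 2 and 6 of 7 class II genes were.

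Macrophage and monocyte markers were higher in Ifrd1 null 1 than in Ifrd1 null 2 in 14 of 14 genes, by a median of 0.62, and higher in wild type 2 than in wild type 1 in 12 of 14, by a median of 0.09. Their mean level was 8.28 and 7.73 in the null, against 8.06 and 8.20 in wild type. Lyz2, a lysozyme of myeloid cells, was at 10.5 and 9.68 in the null and 10.3 and 10.6 in wild type. Csf1r, the growth factor receptor of macrophages, was at -0.31 ± 0.23 (log2, SE), and the monocyte receptor Cd14 was at -0.44 ± 0.10 (limma adjusted p = 0.721). The highest array was Ifrd1 null 1 in 8 of the 14 genes and wild type 2 in the other 6, Lyz2 among them. The order of H2-Aa was shown by 5 of the 14.

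As a list, dendritic cell markers showed little of this split. They were higher in Ifrd1 null 1 than in Ifrd1 null 2 in 7 of 12 genes, by a median of 0.06, with mean levels of 5.40 and 5.36 in the null and 5.29 and 5.29 in wild type. Of the 12, 3 lay below the median of every array. The order of H2-Aa was shown by 1 of the 12, against 4.44% of all genes. That gene, Cd209a, was at 9.38 and 8.84 in Ifrd1 null 1 and 2, against 8.96 and 9.02 in wild type 1 and 2 (named after its values were seen). Xcr1, a receptor of cross-presenting dendritic cells, was at -0.33 ± 0.11, and Bst2, which interferon also induces, at 0.39 ± 0.14 (log2, SE; limma adjusted p = 0.721 for each).

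T cell markers were highest in Ifrd1 null 1 in 10 of 10 genes, and adipocyte markers in 6 of 6. Of the 10 T cell markers, 4 lay above the median of every array and 2 below it in every array. Mean levels of T cell markers were 4.79 and 4.45 in the null and 4.24 and 4.38 in wild type, and those of adipocyte markers 6.37 and 5.06, against 5.31 and 5.85. Fabp4, a fatty acid carrier of adipocytes, was at 8.53 and 7.08 in the null and 7.25 and 7.54 in wild type, and Lep, the hormone leptin, lay below the median of every array. Of the adipocyte markers, 5 of 6 stood in the order of H2-Aa. Cd4, the coreceptor that binds class II, was at 6.31 and 5.34 in Ifrd1 null 1 and 2, against 5.24 and 5.87 in wild type 1 and 2. As in H2-Aa, Ifrd1 null 1 was highest and wild type 2 next, but wild type 1 was lowest in Cd4. The full order of H2-Aa was shown by 0 of the 10 T cell markers and 1 of the 10 B cell markers, against 4.44% of all genes. Lat, an adaptor of T cell receptor signalling, was at 0.57 ± 0.14 and Cd8b1, a CD8 chain, at 0.51 ± 0.16 (log2, SE; limma adjusted p = 0.721 for each). Acinar markers went the other way, with 0 of 9 higher in Ifrd1 null 1 than in Ifrd1 null 2 and a median gap of -0.31. Ptf1a and Rbpjl, transcription factors of acinar cells, were at -0.15 ± 0.11 and -0.21 ± 0.15 (log2, SE).

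Duct and endothelial markers had medians of 0.17 and 0.02 for Ifrd1 null 1 minus Ifrd1 null 2. The duct keratin Krt19 was at -0.59 ± 0.12 and the chloride channel Cftr at -0.49 ± 0.11, and the endothelial genes Plvap and Emcn were at -0.60 ± 0.15 and -0.36 ± 0.10 (log2, SE; limma adjusted p = 0.721 for each). Muc1, an epithelial mucin, was at -0.15 ± 0.16. Plasma cell markers were split: 3 of 6 were higher in Ifrd1 null 1 than in Ifrd1 null 2, with a median of 0.31. Derl3, an endoplasmic reticulum protein of secretory cells, was at 7.86 and 9.25 in the null, against 8.32 and 8.26 in wild type. Sdc1, a surface proteoglycan, was at 7.18 and 7.31, against 7.38 and 7.39, and Prdm1, a factor of plasma cell formation, at 4.98 in both null arrays, against 4.93 and 4.65. Jchain, the joining chain of secreted antibodies, was the marker with the widest gap, at 8.19 and 5.23 in the null, against 6.33 and 6.46 in wild type (named after its values were seen).

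Among markers of lymph node stroma and high endothelium, 5 of 8 were measured, and 3 of the 5 were higher in Ifrd1 null 1 than in Ifrd1 null 2, with a median of 0.06. Madcam1, an adhesion ligand, was at 5.08 and 5.02 in the null, against 4.80 and 4.82 in wild type. Glycam1, a ligand made by the high endothelium of lymph nodes, was at 6.24 in Ifrd1 null 1 and below the array median in the other 3 (4.03 in Ifrd1 null 2, 3.85 and 3.92 in wild type). Cxcl13, the chemokine that draws B cells into follicles, was at 10.1 and 6.46 in the null, against 8.41 and 8.89 in wild type. The part of these cell types in the class II levels was not tested.

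Of 12 intestinal markers, 9 were highest in wild type 1, against 20.3% of all genes, and 5 lay below the median of every array. Their mean level was 4.25 and 4.34 in the null arrays, against 5.14 in wild type 1 and 4.33 in wild type 2. Lgals4, a galectin of the gut lining, was at 4.24 and 3.97 in the null and 7.24 and 4.31 in wild type. Wide gaps between the wild-type arrays were also seen in Agr2, Muc2 and Mep1a. For wild type 2 minus wild type 1 they were -2.06, -1.79 and -1.03. Lgals4 and these genes were named after their values were seen. Vil1, a protein of the brush border, and Slc5a1, a glucose transporter, were high in both wild-type arrays. Vil1 was at 4.02 and 4.38 in the null, against 5.46 and 4.88, and Slc5a1 at 4.38 and 4.64, against 5.26 and 4.95. Anpep, an aminopeptidase, was at 10.56 and 10.90 in the null, against 10.62 and 10.53. The class II median without wild type 1 was -0.13, with H2-Eb1 at 0.33 and Ciita at -0.27 (limma adjusted p = 0.898 and 0.888). Without Ifrd1 null 1, the array high in B and T cell markers, the median was -0.19 and all 7 genes were lower in the remaining null array, from -0.33 in H2-Ab1 to -0.02 in H2-Eb1 (limma adjusted p from 0.504 to 0.949).

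**Figure D5:**
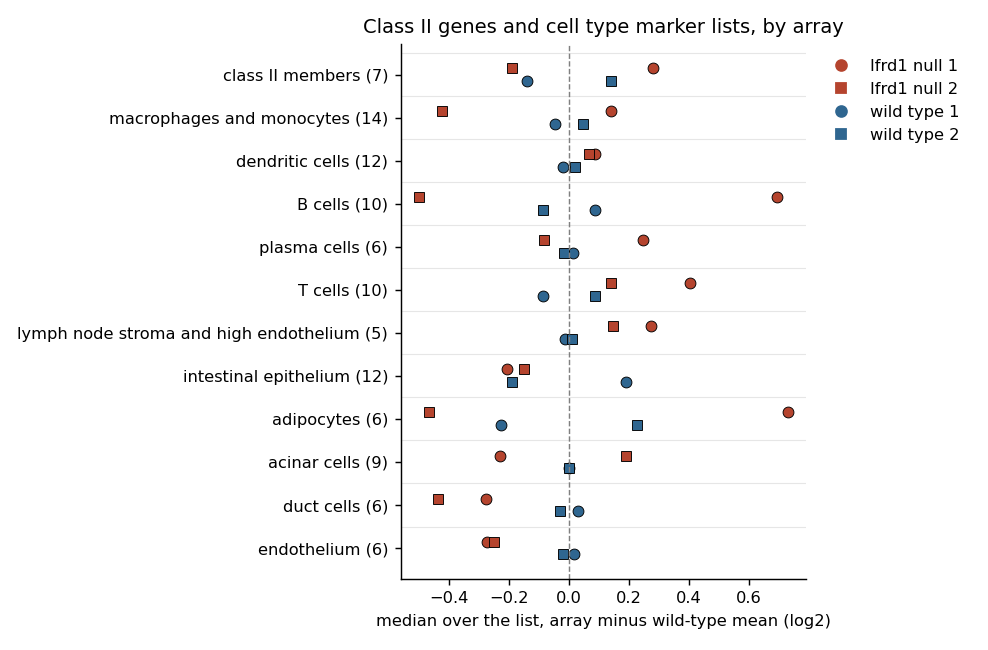
Median over each list of an array's difference from the wild-type mean (x axis, log2) for the class II genes and 11 lists of cell type markers, with the number of genes measured in brackets; red is null, blue wild type, circles replicate 1 and squares replicate 2. For class II genes, macrophages, B cells and adipocytes Ifrd1 null 1 lies to the right of 0 and Ifrd1 null 2 to the left, and acinar cells show the reverse.

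Outside the set, the 6 genes whose levels over the 4 arrays lay nearest to the mean class II profile (Euclidean distance of values centred on each gene's mean, among 11085 genes above the median gene) were B4galt5, Evl, Dok3, Arhgef40, Cic and Txlng. The class II profile was 0.25 in Ifrd1 null 1 and -0.20 in Ifrd1 null 2, against -0.15 and 0.10 in wild type 1 and 2. B4galt5, a galactosyltransferase, was nearest at a distance of 0.021, with 7.59 and 7.16 in the null and 7.18 and 7.45 in wild type. Evl came next at a distance of 0.032, with 6.94 and 6.49 in the null and 6.52 and 6.76 in wild type. Dok3, an adaptor of B cells and macrophages, followed at 0.035, with 5.93 and 5.52, against 5.52 and 5.79. With 4 arrays such a match is loose, and it is given as a description.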

How the data were processed

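Pancreas RNA, extracted with Trizol, was biotin-labelled for Affymetrix arrays, per the labels' protocols. The table that the authors deposited (41345 rows, 1 value per array) was read as log2 levels. The log base was inferred from their range (0.218 to 13.9), and background correction, summary, normalization and detection calls are not given in the sources used here. Rows with exactly 1 gene symbol in the platform annotation were used (23521), and the brightest row per gene, which left 22180 genes. No filter on dim rows was applied. Limma 3.58.1 (lmFit and eBayes) in R 4.3.3 compared Ifrd1 null with wild type over all genes, two-sided, with Benjamini-Hochberg adjustment. SE and intervals are limma's moderated ones, SD is that of 2 arrays. The fit was tested on simulated data. Litter and day of each sample are not given in the sources used here, so p-values measure the spread between these 4 arrays, whose number limits the precision.

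The class II genes and all lists were chosen with earlier results of these data known. Lists are described by counts and medians, with no test of their own. Of 171 symbols on the lists, 156 had a row. Named genes are the class II genes, Ifrd1, the 6 nearest profiles and, of each other list, the brightest gene and the pair with the smallest unadjusted p; others are marked as named after their values were seen, apart from 2 close paralogs (H2-DMb2 and H2-Ea), Ifng, Xist and Uty. Alternatives were 3 further normalizations, a filter on dim genes, another eBayes prior, the mean over rows, genes on X and Y left out, the replicate number as a block, and each array left out.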

Additional observations from a re-analysis of the deposited data

How the results depend on the processing

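No class II gene reached an adjusted p of 0.05 under any of the alternatives run (0 in each), and the dim H2-DMb1 and H2-Ob had no value among genes above the median level. Small differences changed sign with the scaling. With quantile normalization of the deposited values, H2-Ab1, H2-DMa and Ciita were at 0.052, 0.033 and 0.012. With cyclic loess these 3 were at 0.066, 0.043 and 0.0040. H2-Aa was at -0.042 with arrays centred on their medians. The class II genes were thus 6 higher and 1 lower with quantile normalization and with cyclic loess and 2 higher and 5 lower with median centring, against 3 and 4 as deposited; of all genes 47.2% were higher as deposited and 37.7% with median centring. Leaving out each array in turn gave differences from -0.29 to 0.30 for H2-Aa, -0.33 to 0.29 for H2-Ab1, -0.019 to 0.74 for H2-Eb1, -0.20 to 0.17 for H2-DMa, -0.24 to 0.11 for H2-DMb1, -0.076 to 0.28 for H2-Ob and -0.28 to 0.22 for Ciita. The median over the set ranged from -0.19 to 0.28, and class II genes with an unadjusted p under 0.05 from 0 to 2 (H2-Eb1 and H2-Ob, without Ifrd1 null 2). Genes of the other pathway lists with an unadjusted p under 0.05 numbered from 0 to 10 with an array left out, 10 without Ifrd1 null 1, all lower, and 5 without Ifrd1 null 2. They numbered 2 with arrays centred on their medians (H2-Oa and Rfx5), 1 among genes above the median level and 1 with the trend and robust prior (Rfx5 in each). Over all genes, 1 passed the adjusted threshold (Uty), against 4 with quantile normalization, 4 with cyclic loess, 4 with the replicate block, 5 with median centring, 5 with the trend and robust prior, 0 among genes above the median level (where 884 genes had an unadjusted p under 0.05, against 1532 of all genes), 0 without genes on X and Y and 0 with any array left out (where 1301 to 2232 genes had an unadjusted p under 0.05). Across genes, the gap between replicates 1 and 2 correlated with r = -0.04 between the genotypes. Whether the replicate numbers pair the arrays by litter or day was not tested, as neither is given. With the replicate block 0 of the 7 class II genes had an unadjusted p under 0.05 in limma, against 1218 of 22180 genes. The cause of these shifts was not tested beyond the smaller number of genes or arrays. With an array left out, its genotype has 1 array and no spread of its own. Over all genes, too, many had an unadjusted p under 0.05 in those fits. Their counts of class II and pathway genes are therefore given as a description and not as evidence of a difference. The median gap between the null arrays ranged from 0.48 to 0.59 over the scalings and filters.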
